A study of Mus musculus with 11 samples.

Results

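Core pluripotency factors around Oct4 were followed through sorted populations of mouse naive extra-embryonic endoderm (nEnd), stem cells grown as a model of the blastocyst's primitive endoderm. The set held 5 genes, *Pou5f1* (which encodes OCT4), *Sox2*, *Nanog*, *Sall4* and *Utf1*, taken by name out of 48952 genes in the bulk table and 32285 in the single-cell tables, and all 5 were present in both. The question was which of them follow Oct4 into endoderm cells that carry OCT4 and PDGFRA at once. The bulk libraries came from untreated nEnd of the OCT4-mCherry line, in which mCherry reports OCT4 protein, sorted by flow cytometry into cells positive for PDGFRA alone (Pdgfra+), for both proteins (DP) and for the reporter alone (Oct4+), with 3 libraries of each. The single-cell libraries came from Oct4LOF nEnd of the line labelled EPUc, in which 4-hydroxytamoxifen (4OHT) induces loss of *Oct4*. Its PDGFRA-positive cells were sorted and cultured without 4OHT (-4OHT) or with it (+4OHT), with 1 library per condition. After this step the cells were kept in normal medium without 4OHT before they were taken, as the paper states. All cells were grown in RACL, a medium with Activin A, CHIR99021 and LIF, on feeder fibroblasts. Each experiment used 1 reporter or deletion line. Because *Oct4* and PDGFRA defined the sort, the levels of *Pou5f1* and *Pdgfra* in the sorted groups are a check of their labels and no finding.

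OCT4, a POU homeodomain protein, and SOX2, an HMG-box protein, bind DNA side by side at composite sites near genes of the pluripotent epiblast, and NANOG, a homeodomain protein, acts with them. SALL4 is a zinc finger factor that is present in both the epiblast and the primitive endoderm, while UTF1 is a chromatin-associated factor of undifferentiated cells whose gene is a known target of OCT4 and SOX2. The primitive endoderm arises beside the epiblast in the blastocyst under GATA6 and FGF signalling and loses SOX2 and NANOG as it matures, whereas OCT4 persists in it for longer.

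In the GENCODE annotation of GRCm38, *Pou5f1* lies on the plus strand of chr17:35506018-35510772, *Sox2* on the plus strand of chr3:34650405-34652461, *Nanog* on the plus strand of chr6:122707489-122714633, *Sall4* on the minus strand of chr2:168748332-168767943 and *Utf1* on the plus strand of chr7:139943789-139945112. RefSeq promoter windows of 250 bases before and 50 bases after the start were matched for 4 of the 5 genes, with no entry for *Sall4*. They are shown because OCT4 and SOX2 bind DNA side by side at composite sites. The sort used the OCT4 reporter and PDGFRA, and SOX2 had no part in it. The capitals mark letters of an octamer core (TTTGCAT) or a SOX motif (ACAATG), each searched on both strands. The first window of each gene follows, from GRCm38.p6 and on the plus strand, at chr17:35505782-35506081, chr3:34649745-34650044, chr6:122707239-122707538 and chr7:139943606-139943905.
Pou5f1: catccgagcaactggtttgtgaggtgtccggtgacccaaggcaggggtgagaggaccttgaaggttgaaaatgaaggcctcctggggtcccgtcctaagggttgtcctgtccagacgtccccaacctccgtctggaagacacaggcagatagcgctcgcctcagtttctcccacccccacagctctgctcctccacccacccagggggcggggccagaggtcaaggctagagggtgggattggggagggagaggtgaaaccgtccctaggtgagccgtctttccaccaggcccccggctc
Sox2: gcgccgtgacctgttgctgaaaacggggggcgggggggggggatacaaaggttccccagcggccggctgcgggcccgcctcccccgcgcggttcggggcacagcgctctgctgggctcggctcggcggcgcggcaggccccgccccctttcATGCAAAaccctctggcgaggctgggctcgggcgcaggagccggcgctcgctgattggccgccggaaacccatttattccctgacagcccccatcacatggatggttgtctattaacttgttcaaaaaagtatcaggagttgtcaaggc
Nanog: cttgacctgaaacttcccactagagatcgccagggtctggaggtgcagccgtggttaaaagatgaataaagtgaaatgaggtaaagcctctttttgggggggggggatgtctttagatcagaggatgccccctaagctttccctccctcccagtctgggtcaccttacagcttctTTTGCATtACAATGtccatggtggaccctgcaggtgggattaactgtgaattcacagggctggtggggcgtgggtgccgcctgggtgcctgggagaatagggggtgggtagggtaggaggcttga
Utf1: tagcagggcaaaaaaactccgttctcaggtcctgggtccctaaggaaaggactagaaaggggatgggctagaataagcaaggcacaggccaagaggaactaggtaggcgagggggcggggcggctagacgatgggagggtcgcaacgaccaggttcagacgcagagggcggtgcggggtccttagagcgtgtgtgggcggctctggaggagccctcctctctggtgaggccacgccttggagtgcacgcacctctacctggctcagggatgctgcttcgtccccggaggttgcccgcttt
In the *Nanog* window the octamer core began 75 bases before the start and the SOX motif 67 bases before it, with 1 base between them. The *Sox2* window held the octamer core on the minus strand, 99 bases before the RefSeq start of that window, which ends before the GENCODE start of *Sox2*. Neither motif was in the windows shown for *Pou5f1* and *Utf1*. The second *Pou5f1* window, at chr17:35508557-35508856 and not shown, held a SOX motif 158 bases before its start and no octamer core. The second *Nanog* window, at chr6:122707315-122707614 and not shown, overlaps the first. It held the octamer core 151 bases and the SOX motif 143 bases before its start. All these distances are to the RefSeq start of the window. Among 32817 promoter windows of this length, 4.63% held the octamer core, 12.6% the SOX motif and 0.814% both. These are matches of letters in promoter windows and give no binding.

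The bulk libraries held 8019631 to 11642571 reads. All 14 endoderm markers listed, among them *Gata6* and *Sox17*, were past the threshold given below and higher in DP than in Oct4+, where 13.1% of all genes tested were. *Pdgfra* is also among the 14, and its level follows from the sort. In DP over Pdgfra+, 2 of the 14 rose past the threshold, as did 3.2% of all genes tested. These were *Amn* and *Cubn*, which encode the partners of an endocytic receptor of visceral endoderm. The 5 of 8 fibroblast markers that passed the filter summed to 40.4 to 128.4 in Pdgfra+, to 22.3 to 24.31 in DP and to 24.38 to 155.9 in Oct4+, in CPM (reads scaled to equal library sizes, TMM-adjusted), a sum carried by *Col5a1* in Pdgfra+ and DP, while *Col1a2* was at 1.53 ± 0.267 CPM in Pdgfra+ and 2.72 ± 1.74 in DP (SD, n = 3). The 5 of 7 trophectoderm markers that passed summed to 18.33 to 20.87 CPM in Pdgfra+, to 35.41 to 42.25 in DP and to 27.04 to 31.47 in Oct4+, and the 5 of 6 markers of the 2-cell embryo summed to 1.044 to 1.893, 4.363 to 15.58 and 225.5 to 801 CPM, with *Usp17lc* past the threshold in DP over Pdgfra+. The 13 epiblast markers, none of them among the 5 factors, summed to 820.5 to 995.2 CPM in Pdgfra+, 1405 to 1908 in DP and 3984 to 5387 in Oct4+. Of these 13, 9 rose past the threshold in DP over Pdgfra+, as did 3.2% of all genes tested. The part of these cell types in the results below, that of Oct4+ cells carried into the DP sort included, was not tested. Differences between groups were tested by edgeR's quasi-likelihood test with Benjamini-Hochberg adjustment over 14185 genes, and a gene was past the threshold at an adjusted p below 0.05 and a log2 fold change above 1.5 in size.

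*Pou5f1* ordered the sorted groups as their labels do. It stood at 26.4, 8.37 and 17.6 CPM in Pdgfra+ libraries 1 to 3, at 131.9, 245 and 310.3 in DP and at 1137, 944 and 861 in Oct4+. No library of 1 group overlapped another group, as was so for 34.3% of all genes tested between DP and Pdgfra+, 62.6% between DP and Oct4+ and 69.3% between Oct4+ and Pdgfra+. The log2 fold change was 3.72 (SE 0.42, adjusted p = 0.00725) in DP over Pdgfra+ and -2.10 (SE 0.39, adjusted p = 0.0012) in DP against Oct4+. In bulk RNA, fewer cells that hold a transcript and less transcript per cell cannot be told apart, here and for every gene below.

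*Sox2*, the partner of OCT4 at composite sites, stood at 0.366, 2.79 and 1.88 CPM in Pdgfra+, at 16.6, 24.3 and 14.4 in DP and at 441.5, 435.5 and 275.5 in Oct4+. The DP libraries lay above all Pdgfra+ libraries and below all Oct4+ libraries, and the Pdgfra+ values rest on only 3, 28 and 18 reads. *Sox2* rose in DP over Pdgfra+ by 3.40 on the log2 scale (SE 0.45, adjusted p = 0.0101) and was lower in DP than in Oct4+, at -4.38 (SE 0.39, adjusted p = 1.65e-05). *Nanog* showed the same order without overlap, at 0.610, 3.09 and 1.67 CPM in Pdgfra+ (5, 31 and 16 reads), 9.60, 26.55 and 12.03 in DP and 644, 332 and 639 in Oct4+. Its log2 fold change was 3.12 (SE 0.55, adjusted p = 0.0173) in DP over Pdgfra+ and -5.06 (SE 0.49, adjusted p = 2.72e-05) in DP against Oct4+. Without Pdgfra+ replicate 3 the log2 fold change of *Nanog* in DP over Pdgfra+ was 3.06, but its adjusted p was 0.0746, in a fit where the calls over all genes fell from 552 to 57.

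*Utf1* was the factor whose DP libraries spread most in CPM relative to their mean among the 5. It stood at 14.0, 20.8 and 7.62 CPM in Pdgfra+, at 44.1, 184.7 and 57.8 in DP and at 321, 419 and 179 in Oct4+. All DP libraries were above the Pdgfra+ libraries, but DP replicate 2 overlapped the lowest Oct4+ library. The log2 fold change was 2.75 (SE 0.58, adjusted p = 0.0280) in DP over Pdgfra+ and -1.68 (SE 0.55, adjusted p = 0.0233) in DP against Oct4+. Both calls were near the threshold. The first was lost on leaving out any Pdgfra+ library (adjusted p = 0.0719, 0.0597 and 0.107 without replicates 1, 2 and 3), DP replicate 2 (0.0741) or DP replicate 3 (0.0569). The log2 fold change in these fits was 2.75, 3.15, 2.45, 1.84 and 3.01, and the calls over all genes fell from 552 to 363, 148, 57, 124 and 121. The second was lost without DP replicate 1 (0.0769), DP replicate 3 (0.0863), Oct4+ replicate 1 (0.0542) or Oct4+ replicate 2 (0.0738), where the log2 fold change was -1.30, -1.39, -1.63 and -1.39.

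*Sall4* passed the threshold in no comparison. It stood at 304.8, 222 and 289.5 CPM in Pdgfra+, at 322, 307 and 294.6 in DP and at 356.6, 351 and 255 in Oct4+, and the 3 groups overlapped. Its log2 fold change was 0.18 (SE 0.17, adjusted p = 0.531) in DP over Pdgfra+, -0.06 (SE 0.17, adjusted p = 0.781) in DP against Oct4+ and 0.24 (SE 0.17, adjusted p = 0.233) in Oct4+ over Pdgfra+. Thus 4 of the 5 factors were past the threshold and higher in DP than in Pdgfra+, where 3.2% of all genes tested were, and 3.89% in either direction. Among these 4, *Pou5f1* follows from the sort and is no finding in any comparison, which leaves *Sox2*, *Nanog* and *Utf1*. The part of Oct4+ cells carried into the DP sort in their rise was not tested. The same 4 were lower in DP than in Oct4+ (14.6% of all genes, and 27.7% in either direction) and higher in Oct4+ than in Pdgfra+ (17.3% of all genes, and 32% in either direction). In the last comparison the log2 fold change was 5.82 (SE 0.46) for *Pou5f1*, 7.78 (SE 0.48) for *Sox2*, 8.18 (SE 0.60) for *Nanog* and 4.43 (SE 0.62) for *Utf1*. The comparisons share groups and are not independent of each other.

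**Figure D1:**
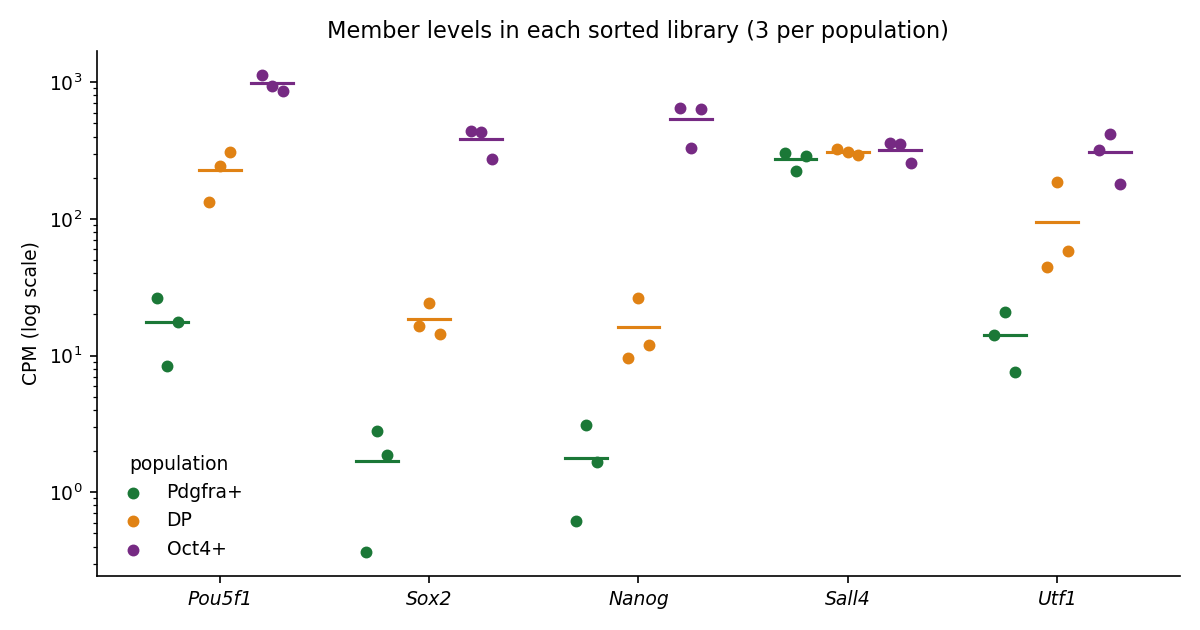
CPM per bulk library (log axis) of the 5 factors in the Pdgfra+, DP and Oct4+ groups, with 1 point per library and a bar at the mean of 3 libraries. *Sall4* runs level across the groups, while *Pou5f1*, *Sox2* and *Nanog* step up from group to group without overlap.

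Per kilobase of exon, which allows levels of different genes to be compared, the order of the factors differed between DP and Oct4+. In DP, *Pou5f1* was at 102 ± 40.2 CPM per kb (SD, n = 3), *Utf1* at 77.9 ± 63.2 and *Sall4* at 55.6 ± 2.48, and these neighbours lay within each other's spread. *Sox2*, at 8.96 ± 2.54, and *Nanog*, at 7.16 ± 4.09, lay below all of them and did not differ from each other beyond their spread. In Oct4+, *Pou5f1* was at 436 ± 63.0 CPM per kb, followed by *Utf1* at 250 ± 98.3, *Nanog* at 240.1 ± 79.8 and *Sox2* at 187 ± 45.8, which overlapped, and by *Sall4* at 58.0 ± 10.3. In Pdgfra+, *Sall4* led at 49.2 ± 7.94, ahead of *Utf1* (11.5 ± 5.38) and *Pou5f1* (7.77 ± 4.00), which overlapped, and *Sox2* (0.816 ± 0.595) and *Nanog* (0.798 ± 0.555). Processed copies of *Pou5f1* and *Nanog* took few reads, with *Pou5f1-rs4* at 22 reads over the Oct4+ libraries and 0 in the others.

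The factors kept unequal shares of their Oct4+ level in DP. *Pou5f1* stood at 13.4%, 24.97% and 31.6% of its Oct4+ mean in DP libraries 1 to 3, *Utf1* at 14.4%, 60.2% and 18.8%, and *Sall4* at 100.4%, 95.7% and 91.8%. *Sox2* stood at 4.32%, 6.33% and 3.74%, and *Nanog* at 1.78%, 4.93% and 2.23%, both below *Pou5f1* in every DP library. Their Pdgfra+ means lay lower again, at 1.78% of the Oct4+ mean for *Pou5f1*, 0.437% for *Sox2*, 0.332% for *Nanog* and 4.62% for *Utf1*.

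The unequal loss was also taken as a ratio to *Pou5f1* within each library. The log2 ratio of *Sox2* to *Pou5f1* was -2.976, -3.322 and -4.411 in DP and -1.365, -1.116 and -1.644 in Oct4+, a mean difference of -2.20. For *Nanog* it was -3.751, -3.195 and -4.665 in DP and -0.82, -1.508 and -0.431 in Oct4+, a difference of -2.95. Both factors were thus scarcer relative to *Pou5f1* in every DP library than in any Oct4+ library, and *Sall4* was more abundant relative to it, with a difference of 2.13. Each of these 3 differences had p = 0.1 in an exact two-sided permutation test over libraries, the smallest p that 3 against 3 libraries allow, and 0.133 after Benjamini-Hochberg adjustment over 4 tests. The sort on the OCT4 reporter set the *Pou5f1* level, so every ratio holds a part that follows from the sort. *Sall4* itself changed by -0.06 on the log2 scale in DP against Oct4+ and *Pou5f1* by -2.10. The *Sall4* ratio thus carries the sorted *Pou5f1* change with its sign turned and is no finding. For *Utf1* the difference was 0.28 with overlapping libraries (exact permutation p = 0.7), and it turned to -0.25 without DP replicate 2.

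These shares were set beside those of all genes that were past the threshold and higher in Oct4+ than in Pdgfra+ with at least 10 CPM in Oct4+, which numbered 1148. Their DP level was at a median of 17.7% of the Oct4+ level, with quartiles at 6.54% and 33.45%. *Pou5f1* lay above 59.4% of these genes and *Utf1* above 70.8%. *Sox2* lay above 16.8% and *Nanog* above 9.76%, so that both belonged to the genes with a low share in DP. The filter asks for a high level in Oct4+, the level each share is taken of, which bears on these places. The place of *Pou5f1* follows from the sort and is no finding. On the log2 scale, where 0 is the Pdgfra+ mean and 1 the Oct4+ mean, the DP position was 0.633 ± 0.107 (SD, n = 3) for *Pou5f1*, 0.575 ± 0.246 for *Utf1*, 0.449 ± 0.0488 for *Sox2* and 0.377 ± 0.0925 for *Nanog*. On the linear scale these positions were 21.96%, 27.8%, 4.38% and 2.66%, so the 2 scales place a DP library far apart for the same reads.

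Across the 9 libraries the factors fell near different genes. Likeness was measured as the root mean square difference in centred log2 CPM over the 9 libraries among 9303 genes, where smaller is more alike. The genes nearest to *Pou5f1* were *Zfp980* (0.402), *Rbmxl2* (0.533), *Bcat1* (0.541), *Wscd2* (0.560) and *Syt9* (0.600). *Sox2* and *Nanog* were at 0.558 from each other, with *Nanog* ranked 5 among the genes nearest to *Sox2* and *Sox2* ranked 4 among those nearest to *Nanog*. Both had *Dusp27* among their nearest genes, at 0.490 and 0.411, and *Nanog* was at 0.468 from *Tdgf1*, which encodes a co-receptor of NODAL. *Sall4* was nearest to *Ing1* and *Mllt10* (both 0.111). From *Pou5f1*, *Utf1* was at 1.06 (rank 117), *Sox2* at 1.42 (rank 389), *Nanog* at 1.59 (rank 567) and *Sall4* at 2.39 (rank 3500).

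Other genes of the pluripotency network were set beside these patterns. Their lists were chosen with earlier results of these data known, which bears on the counts past the threshold. Of 24 other pluripotency factors, 12 were past the threshold and higher in DP than in Pdgfra+, where 3.2% of all genes tested were. The median log2 fold change of the 24 was 1.86, beside 0.022 over all genes tested. The 4 with the largest change were *Tcl1* at 4.65 (SE 0.87), *Esrrb* at 3.78 (SE 0.38), *Nr0b1* at 3.73 (SE 0.76) and *Gdf3* at 3.47 (SE 0.66), of which *Esrrb* and *Nr0b1* encode nuclear receptors and *Gdf3* a TGF-beta ligand. Against Oct4+, 14 of the 24 were past the threshold and lower in DP, where 14.6% of all genes tested were. The ones that differed did not do so alike, since *Tcl1* (25.7 ± 16.3 CPM in DP and 37.9 ± 26.7 in Oct4+) did not pass the threshold there (adjusted p = 0.497), while *Gdf3* was at 2.12 ± 0.778 and 53.2 ± 14.2 CPM.

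Of 8 known target genes of OCT4 and SOX2, 5 were past the threshold and higher in DP than in Pdgfra+ (3.2% of all genes tested were). The median log2 fold change of the 8 was 2.41. *Tdgf1* rose by 3.16 (SE 0.64), *Spp1*, which encodes osteopontin, by 2.70 (SE 0.37) and *Fgf4*, the FGF ligand of the epiblast, by 2.50 (SE 0.52), while *Lefty1*, an inhibitor of NODAL, had 2.44 (SE 0.97) and an adjusted p of 0.155. *Fgf4* reached 2.51 ± 0.855 CPM in DP against 107 ± 39.5 in Oct4+, and *Spp1* 123.6 ± 43.8 against 298 ± 110. Against Oct4+, 6 of the 8 were past the threshold and lower in DP (14.6% of all genes tested were). The linear DP position of the 8 targets had a median of 13.7% and ran from 1.94% for *Fgf4* to 37.5% for *Spp1*, with 2 above *Pou5f1*. Of the other pluripotency factors, 17 had at least 10 CPM in Oct4+ and over 2 times their Pdgfra+ level. Their linear DP position had a median of 16.5%, with 5 above *Pou5f1* and 4 below *Sox2*. This filter asks for a high Oct4+ level, which bears on that median. *Zfp42*, *Zscan10*, *Tdgf1* and *Dppa4* were on both lists.

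**Figure D2:**
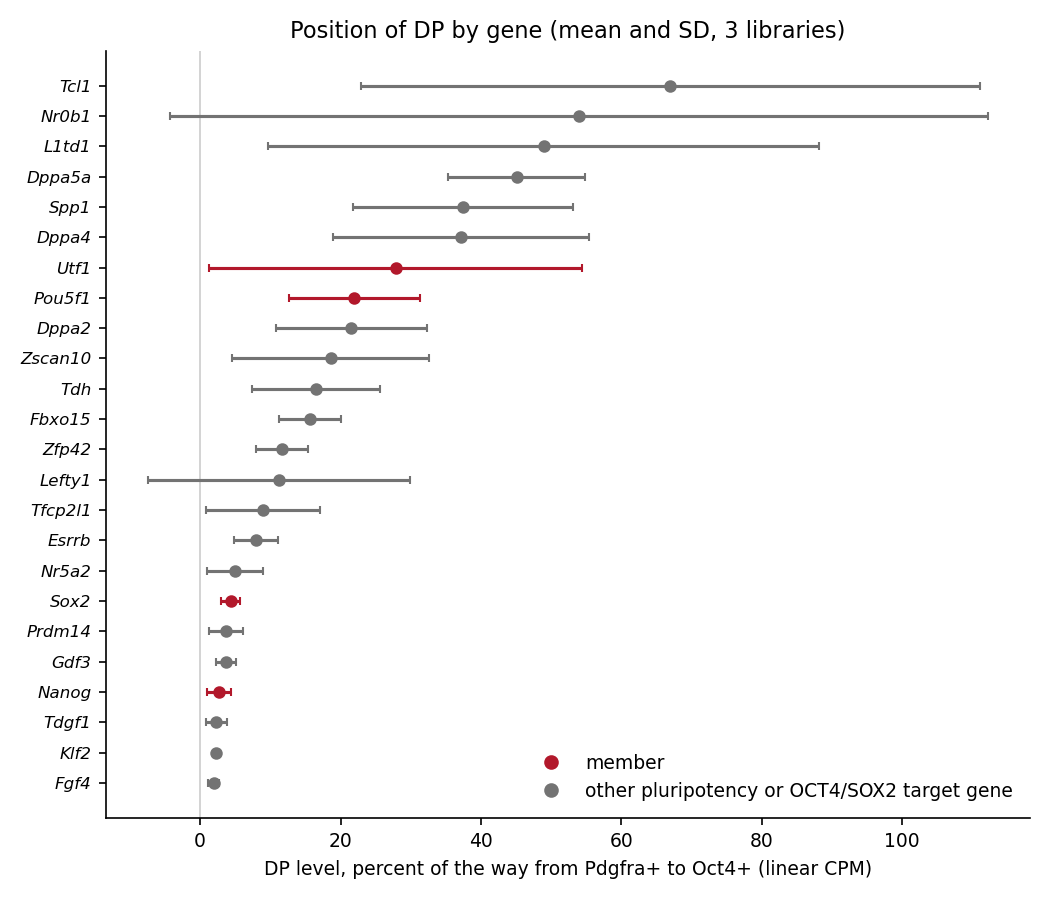
Linear position of DP, as a percentage of the way from the Pdgfra+ mean to the Oct4+ mean in CPM, for 4 factors (red) and for other pluripotency and target genes (grey), as mean and SD of 3 libraries. *Utf1* (27.8%) and *Pou5f1* (21.96%) lie in the upper part of the genes, and *Sox2* (4.38%) and *Nanog* (2.66%) near *Tdgf1* and *Fgf4* at the lower end.

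Close relatives of the factors, which share their DNA-binding domains, gave few calls in DP over Pdgfra+, as did all genes. Of 14 POU, SOX and SALL family genes tested, 0 were past the threshold in DP over Pdgfra+ by edgeR's quasi-likelihood test (3.89% of all genes were), while 4 had an unadjusted p below 0.05 and DESeq2 called 1, *Sall3*. A further 3 (*Pou3f2*, *Pou3f4* and *Sox18*) were left out by the filter on low counts. *Sox1* had a log2 fold change of 3.75 (SE 1.83, adjusted p = 0.244) at 0.172 ± 0.20 CPM in DP, *Pou2f2* one of 2.69 (SE 0.88, adjusted p = 0.0952), *Pou2f3* one of -2.61 (SE 1.37) and *Sall3* one of 1.88 (SE 0.69, adjusted p = 0.129). *Sall1*, a relative of *Sall4*, was at 44.9 ± 11, 83.7 ± 4.79 and 124.5 ± 56.5 CPM in Pdgfra+, DP and Oct4+ (log2 fold change 0.90, SE 0.30, adjusted p = 0.0979 in DP over Pdgfra+). The log2 fold changes of *Pou2f1*, *Pou3f1*, *Pou3f3*, *Pou6f1*, *Sall2*, *Sox3*, *Sox7*, *Sox15* and *Sox17* lay between -0.89 and 0.75. Against Oct4+, where 27.7% of all genes were called, 7 of the 14 were lower in DP and 2 were higher, *Sox7* and *Sox17*, both factors of the endoderm.

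The single-cell libraries of Oct4LOF nEnd gave the levels cell by cell. After filtering, 5267 of 6896 barcodes were kept in -4OHT (median 18073 UMIs) and 6266 of 7283 in +4OHT (median 12684.5 UMIs), and 21 barcodes occurred in both libraries. Clusters made without the 5 factors were named from marker genes, and the study's own cell names were not used here. In -4OHT, 3718 cells were epiblast-like and 1349 endoderm-like, and 724 of the latter formed a cluster led by *Amn* and *Cubn*, the 2 endoderm markers that rose in bulk DP. The other 625 endoderm-like cells fell into clusters led by *Gkn1* and *Tff1* or by *Car4* and *Pitx1*. In +4OHT, 6031 cells were endoderm-like, 1 of them in the *Amn*/*Cubn* cluster, and 0 were epiblast-like, which allows a share of up to 0.0479%. With 1 library per condition there is no test between conditions, a cluster found in 1 library may be that library, and intervals below are 95% intervals that cover counting error only.

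In the *Amn*/*Cubn* cells, *Pou5f1* was at 21.7 CPM (exact Poisson interval 19.4 to 24.2), beside 48.3 in epiblast-like and 3.04 in the other endoderm-like cells. *Utf1* was at 103.9 CPM, beside 361 and 8.36. *Sox2* was at 33.3 CPM, beside 340 and 6.97, and *Nanog* at 16.8, beside 181 and 5.83. *Sall4* was at 162, 119 and 127.7 CPM in the 3 kinds of cell. As a percentage of the epiblast-like level, the *Amn*/*Cubn* cells held 44.9% of *Pou5f1* (39.9 to 50.5), 28.8% of *Utf1* (27.3 to 30.3), 9.81% of *Sox2* (8.94 to 10.7), 9.31% of *Nanog* (8.16 to 10.6) and 136% of *Sall4* (130 to 142). The order of *Pou5f1* and *Utf1* above *Sox2* and *Nanog* was that of bulk DP.

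Doublets touched these values unequally. A doublet caller marked 54 of the 724 *Amn*/*Cubn* cells (7.46%), 1.40% of epiblast-like and 0.16% of the other endoderm-like cells. The marked cells held 66.3% of the *Sox2* UMIs of the cluster (319 of 481) and 64.6% of its *Nanog* UMIs (157 of 243), against 19.8% of *Pou5f1*, 28.5% of *Utf1* and 12.3% of *Sall4* UMIs. Without them the share of the epiblast-like level was 41.5% for *Pou5f1* (36.4 to 47.2), 23.7% for *Utf1* (22.3 to 25.2), 3.81% for *Sox2* (3.25 to 4.45), 3.79% for *Nanog* (3.03 to 4.69) and 138% for *Sall4*. The fold over the other endoderm-like cells was then 6.60 for *Pou5f1* (4.34 to 10.5), 10.3 for *Utf1* (8.0 to 13.4) and 1.86 for *Sox2* (1.36 to 2.57). For *Nanog* it was 1.18, and its interval of 0.816 to 1.73 included 1, so that no excess of *Nanog* was detectable at this depth. The caller used all genes, the 5 factors included, and what this did to which cells were marked was not tested.

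**Figure D3:**
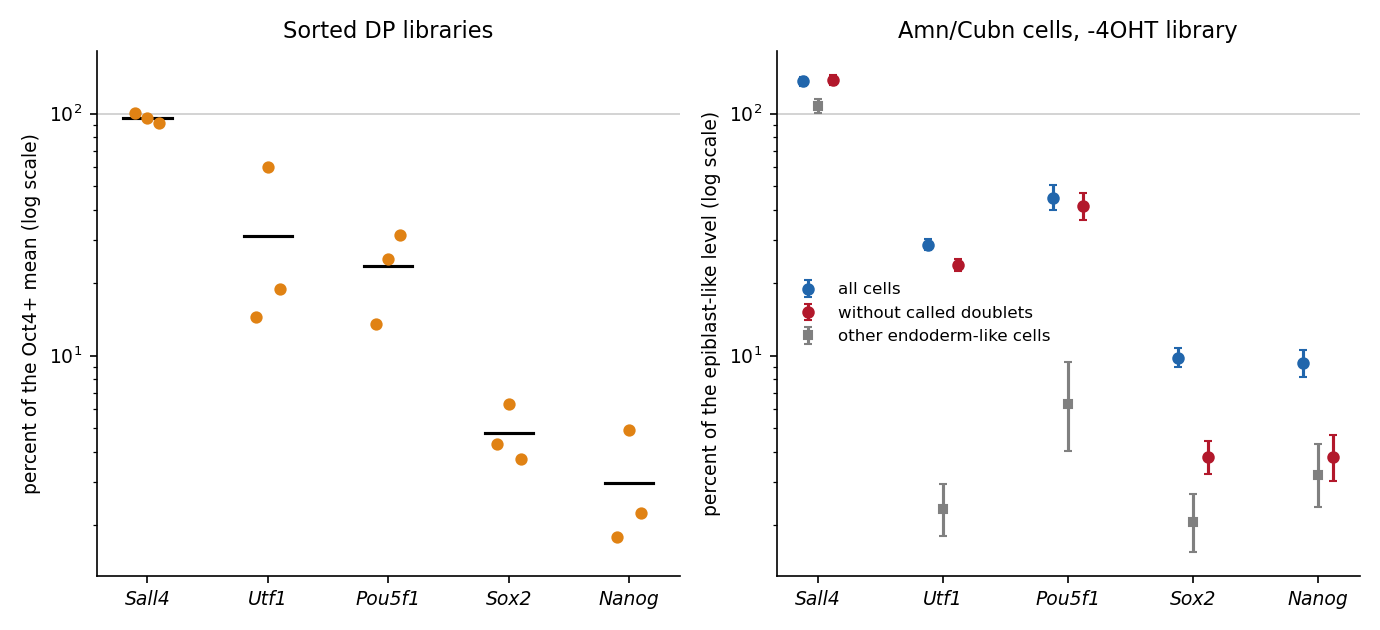
Left, level of each factor in DP as a percentage of its Oct4+ mean (log axis), with 1 point per library and a bar at the mean; right, level in *Amn*/*Cubn* cells of -4OHT with and without marked doublets, and in the other endoderm-like cells, as a percentage of the epiblast-like level (log axis), with 95% counting intervals. In both, *Sox2* and *Nanog* lie below *Pou5f1* and *Utf1*, and without marked doublets the *Nanog* interval overlaps that of the other endoderm-like cells.

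**Figure D4:**
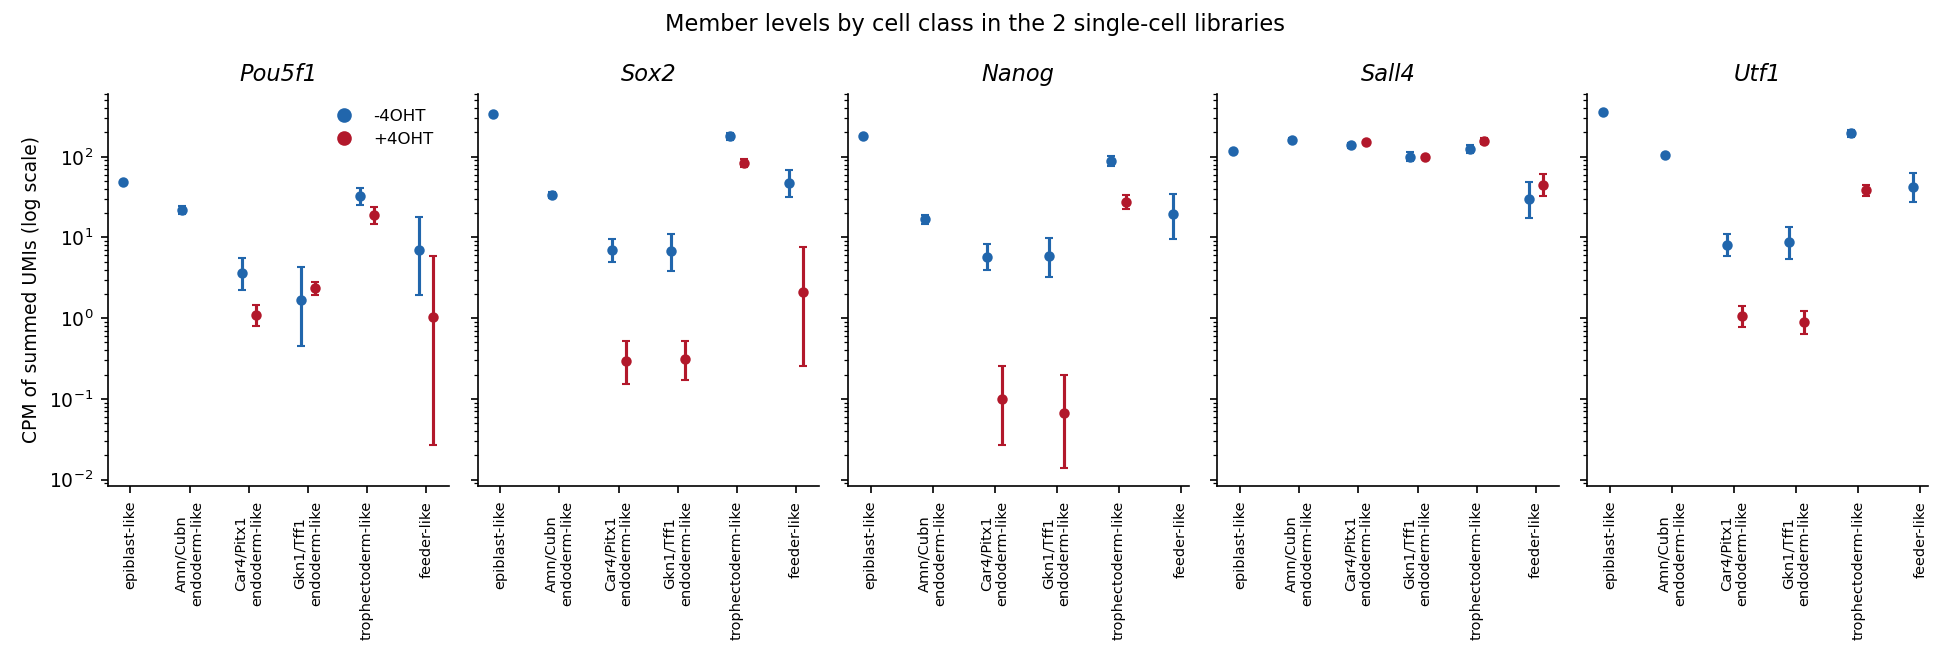
CPM (log axis) of the 5 factors in summed UMIs of cell classes of the -4OHT (blue) and +4OHT (red) libraries, with bars for the 95% Poisson interval; classes with under 20 cells or 0 UMIs of a gene are not drawn. *Sall4* lies between 99.8 and 162 CPM in the epiblast-like and endoderm-like clusters, while the other 4 factors fall from epiblast-like to *Amn*/*Cubn* to the other endoderm-like cells of -4OHT.

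The factors also stood in different ratios to *Sox2* in the different cells. In epiblast-like cells there were 0.142 *Pou5f1* UMIs, 1.06 *Utf1* UMIs and 0.532 *Nanog* UMIs per *Sox2* UMI. In unmarked *Amn*/*Cubn* cells there were 1.55 *Pou5f1* UMIs (1.27 to 1.90) and 6.62 *Utf1* UMIs (5.60 to 7.86) per *Sox2* UMI, both above the epiblast-like ratio. The *Nanog* ratio there, 0.531 (0.404 to 0.694), was close to that of epiblast-like cells. In the other endoderm-like cells the ratios were 0.436 (0.258 to 0.717) for *Pou5f1*, 1.20 (0.826 to 1.75) for *Utf1* and 0.836 (0.553 to 1.26) for *Nanog*, and in the 20 feeder-like cells 0.148, 0.889 and 0.407. The UMIs of *Pou5f1* were few in epiblast-like cells relative to *Sox2*, whereas *Pou5f1* exceeded *Sox2* per kilobase in bulk Oct4+. The lines and library types differ between these data, and the cause was not tested.

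Counted per cell after thinning to 5000 UMIs, 10.5% of *Amn*/*Cubn* cells held a *Pou5f1* UMI (exact binomial interval 8.35 to 13), 32.2% a *Utf1* UMI (28.8 to 35.8), 7.56% a *Sox2* UMI (5.73 to 9.75), 5.04% a *Nanog* UMI (3.56 to 6.91) and 54.1% a *Sall4* UMI. In epiblast-like cells the shares were 20.8%, 76.9%, 77.2%, 52.6% and 41.4%, in the same order. In the other endoderm-like cells they were 1.46%, 3.25%, 3.09%, 2.28% and 43.7%. Feeder-like cells, which should lack the factors, gave 5.0%, 10%, 25%, 20% and 15%, but over only 20 cells, with a median of 26791 UMIs before thinning beside 18458 in *Amn*/*Cubn* cells. The *Sox2* and *Nanog* shares of *Amn*/*Cubn* cells lay below those of the feeder-like cells, whose intervals are wide (8.66% to 49.1% for *Sox2*), and so did the shares of all factors but *Sall4* in the other endoderm-like cells, so that no expression is read from these shares. The *Pou5f1* share of *Amn*/*Cubn* cells was above that of feeder-like cells but within its interval of 0.127% to 24.9%, and the *Utf1* share, whose own interval overlapped that of feeder-like cells (1.23% to 31.7%), lay just above it. Over all endoderm-like cells of -4OHT the shares were 6.32% for *Pou5f1* (5.07 to 7.77), 18.8% for *Utf1*, 5.49% for *Sox2*, 3.76% for *Nanog* and 49.3% for *Sall4*, and without thinning 18.5%, 37.4%, 14.8%, 10.75% and 79.2%.

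The factors were seldom found together in an endoderm-like cell. Of the 4 factors without *Sall4*, epiblast-like cells at 5000 UMIs held 0 in 2.37% of 3706 cells, 1 in 16.7%, 2 in 39.3%, 3 in 34.4% and all 4 in 7.31%. Of 714 *Amn*/*Cubn* cells, 396 held 0, 251 held 1, 57 held 2, 10 held 3 and 0 held all 4, which allows up to 0.420% of cells with UMIs of all 4 at this depth and does not limit the share that expresses them. In the clusters led by *Car4* and by *Gkn1*, 1 of 403 and 1 of 212 cells of -4OHT held 2 or more. Among 5955 endoderm-like cells of +4OHT, 83 held 1 factor and 0 held more, which allows up to 0.0504% of cells with UMIs of 2 or more at this depth.

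**Figure D5:**
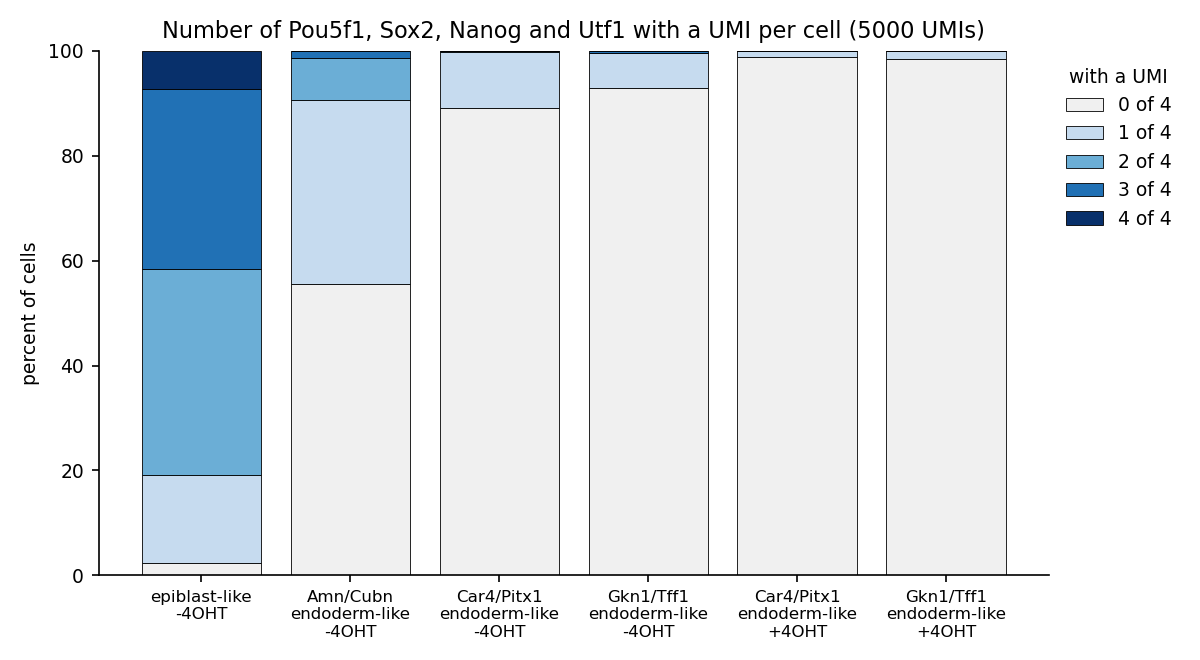
Percentage of cells (stacked bars, cells thinned to 5000 UMIs) with a UMI of 0, 1, 2, 3 or 4 of *Pou5f1*, *Sox2*, *Nanog* and *Utf1* in named cell classes of the 2 single-cell libraries. Epiblast-like cells peak at 2 and 3 factors, *Amn*/*Cubn* cells at 0 and 1, and 98.6% of +4OHT endoderm-like cells hold none.

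Within the *Amn*/*Cubn* cells the factors were found together about as often as their single shares give for some pairs and not for others. *Pou5f1* and *Utf1* met in 24 cells, where the product of their shares gives 24.2, and *Pou5f1* and *Sox2* in 7, where it gives 5.67. *Pou5f1* and *Nanog* met in 2 cells, where it gives 3.78. *Nanog* and *Utf1* met in 18 cells, where it gives 11.6, and *Sox2* and *Utf1* in 25, where it gives 17.4. Without marked doublets these pairs met in 4 and 11 of 660 cells, where it gives 5.05 and 8.02. The widest departure among the pairs of these 4 factors was that of *Sox2* and *Nanog*, which met in 11 cells, where it gives 2.72, and without marked doublets in 3 of 660 cells, where it gives 0.695. Marked doublets made up 50% of the 54 cells with *Sox2* and 52.8% of the 36 with *Nanog*, but 6.67% of the 75 with *Pou5f1*. Cells with *Sox2* had a median of 29331 UMIs, against 18164 for those without it. In epiblast-like cells the observed count was 0.98 to 1.05 times the product for every pair of the 5 factors.

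*Pou5f1* occurred in the same *Amn*/*Cubn* cells as the endoderm genes, with *Gata6* in 45 cells (42.5 from the product), with *Sox17* in 34 (32.6) and with *Pdgfra* in 40 (34.6). Cells of the cluster with 1 *Pou5f1* UMI held *Utf1* in 31.9% of 69 cells, and those with no *Pou5f1* UMI in 32.2% of 639. Over the whole -4OHT library, 49 of 5232 cells (0.937%) held UMIs of both *Pou5f1* and *Pdgfra*, the RNA of the pair that defined DP, and 40 of them lay in the *Amn*/*Cubn* cluster. Of these 49 cells, 28 also held *Sall4* (57.1%), 13 *Utf1* (26.5%, 14.9 to 41.1), 8 *Sox2* (16.3%, 7.32 to 29.7) and 2 *Nanog* (4.08%, 0.498 to 14.0). In +4OHT, 41 of 6189 cells (0.662%) held both, and 21 of them held *Sall4*, 1 *Utf1*, 1 *Sox2* and 0 *Nanog*.

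The +4OHT library was first checked by *Pou5f1*, the targeted gene, which had 149 UMIs or 1.75 CPM in endoderm-like cells, 0.116 times (0.0947 to 0.141) the level of the -4OHT endoderm-like class. The part of *Oct4* that is deleted is not given in the sources used here, so 3′ tags may check the deletion only in part. In the same class, *Sox2* was at 0.305 CPM (26 UMIs), 0.0127 times (0.00821 to 0.0188) its -4OHT level, *Nanog* at 0.0820 CPM (7 UMIs), 0.00634 times (0.00252 to 0.0132), and *Utf1* at 0.973 CPM (83 UMIs), 0.0139 times (0.0110 to 0.0173). *Sall4*, at 125.6 CPM, was at 0.839 times (0.807 to 0.872). The *Amn*/*Cubn* cluster held 724 of 1349 endoderm-like cells in -4OHT and 1 of 6031 in +4OHT, so the class was made of different clusters in the 2 libraries.

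Compared without that cluster, *Pou5f1* was at 0.574 times its -4OHT level, *Utf1* at 0.116, *Sox2* at 0.0437, *Nanog* at 0.0141 and *Sall4* at 0.984. Within the *Gkn1*/*Tff1* cluster *Pou5f1* was at 1.39 times, from 105 and 4 UMIs, with an interval of 0.527 to 5.20 that included 1, and within the *Car4*/*Pitx1* cluster at 0.30 times (0.173 to 0.538). *Sox2* was at 0.0463 and 0.0420 times in these clusters, *Nanog* at 0.0114 and 0.0171, *Utf1* at 0.101 and 0.130, and *Sall4* at 0.997 (0.875 to 1.14) and 1.11 (1.03 to 1.19). The -4OHT library held 3718 epiblast-like cells, rich in *Sox2*, *Nanog* and *Utf1* RNA, and the +4OHT library held 0. The part of free RNA from them in the -4OHT endoderm-like values was not tested.

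Across the pluripotency genes of the *Amn*/*Cubn* cells, *Pou5f1* was again ahead of *Sox2* and *Nanog*. Of the 24 other pluripotency factors, 19 had at least 10 CPM in epiblast-like cells and over 2 times the level of the other endoderm-like cells. Their level in *Amn*/*Cubn* cells had a median of 27.3% of the epiblast-like level, with *Tcl1* highest among the 19 at 93.9%, 8 above *Pou5f1* and 2 at or below *Sox2*. The filter asks for a low level in those endoderm-like cells, which bears on this median. Of the listed factors it left out, *Klf5* was at 237%, *Mycn* at 166%, *Tbx3* at 139%, *Lin28a* at 68.5% and *Klf4* at 47.2%. For the 8 targets of OCT4 and SOX2 the median was 37.5%, from 7.52% for *Fgf4* upward, with 4 above *Pou5f1*. Marked doublets were kept in both rankings, and their part in these places was not tested. *Fgf4*, *Sox2* and *Nanog* were thus low, and *Tcl1* high, relative to the pluripotent cells of the same culture in both the bulk and the single-cell data.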

How the data were processed

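For the bulk libraries (NEBNext directional kit, single-end) the authors' file holds raw counts of reads, 1 row per gene symbol. Of its making, aligner, counter, annotation and strand use were not given in the sources used here, and 35 blank lines were dropped. The droplet data were deposited as raw counts of UMIs for each barcode called as a cell, made with Cell Ranger 6.1.2 per the file headers, on mm10 per the submitters' processing notes. The authors analysed bulk counts with DESeq2.

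Here bulk counts were fitted with edgeR 4.0.16 in R 4.3.3 (filterByExpr, TMM, glmQLFit and glmQLFTest on group, all 9 libraries), with DESeq2 1.42.0 as an alternative. CPM used TMM-scaled library sizes, and log2 CPM a prior count of 2. Labels do not say that replicates were separate cultures, so p-values measure the spread between these libraries. Same-numbered DP and Pdgfra+ libraries deviated together (correlations 0.271, 0.477 and 0.321 across genes), so the numbers pair these groups.

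Cells with at least 1500 genes and under 10% mitochondrial UMIs were kept, clustered with scanpy 1.11.5 (2002 variable genes without the 5 factors, 20 components, 20 neighbours, Leiden resolution 0.2) and thinned to 5000 UMIs for shares, which left out 35 cells of -4OHT and 77 of +4OHT. Doublets were not removed. Scrublet marked 168 cells of -4OHT (3.19%) and 0 of +4OHT, which does not show that doublets were absent there. Levels per class are CPM of summed UMIs. Shares carry exact Clopper-Pearson 95% intervals, levels exact Poisson ones, and upper limits for 0 use 3 counts. The bulk fit was checked on simulated data.

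The factors, gene lists and markers were chosen with earlier results of these data known. Named list genes are up to 4 per list with the largest log2 fold change in DP against Pdgfra+ (all tested relatives), and nearest genes are 5 for *Pou5f1* and up to 3 for each other factor. Also named are the pluripotency factors left out of the single-cell ranking. A gene of the lists is not reported here by name. Normalization, filters, prior count, left-out libraries, a replicate block, thinning, doublets, resolution and averaging were varied.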

Additional observations from a re-analysis of the deposited data

How the results depend on the processing

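In DP against Pdgfra+ the number of genes past the threshold was 552, and 1023 without a filter on low counts, 915 by DESeq2 and 57 to 728 with 1 library left out, while 2 to 4 of the 5 factors were then past it (2 without Pdgfra+ replicate 3). With the replicate block for the pairing, 713 genes and the same number of factors, 4, were past it, and the log2 fold change was 3.76 for *Pou5f1*, 3.52 for *Sox2*, 3.20 for *Nanog* and 2.61 for *Utf1* (adjusted p = 0.0184 each by edgeR), so the block changed no call of a factor. All 90 fold changes of the factors under settings that kept every library had the direction and call reported, as had 77 of 90 with 1 library left out. The other 10 lost a call, and the change of *Sall4* in DP against Oct4+ ran from -0.195 to 0.037 and turned positive without DP replicate 3 (0.004) or Oct4+ replicate 1 (0.037) or 2 (0.013). Over all alternatives the adjusted p for DP against Pdgfra+ ran up to 0.0451 for *Pou5f1*, 0.0478 for *Sox2*, 0.0746 for *Nanog* and 0.107 for *Utf1*. The DP position on the linear scale was 0.220 for *Pou5f1*, 0.0438 for *Sox2*, 0.0266 for *Nanog* and 0.278 for *Utf1*, and on the log2 scale that of *Sox2* ran from 0.396 to 0.481 with 1 library left out. The position was not run for *Sall4*, which passed the threshold in no comparison. The log2 ratio of *Utf1* to *Pou5f1* ran from -0.246 to 0.761 with 1 library left out.

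In -4OHT endoderm-like cells the share with a UMI was, at 2500 UMIs and unthinned, 3.34% and 18.5% for *Pou5f1*, 3.11% and 14.8% for *Sox2*, 2.45% and 10.75% for *Nanog*, 28.8% and 79.2% for *Sall4*, and 11.1% and 37.4% for *Utf1*. Without marked doublets it was 3.61% for *Sox2* and 2.43% for *Nanog*, and at resolution 0.5 7.59% and 5.30%. The +4OHT level over that of -4OHT was 0.173 for *Pou5f1* by the mean over cells and, without marked doublets, 0.0286 for *Sox2* and 0.0174 for *Utf1*. Alternatives chosen after seeing the data gave the rest. Without the *Amn*/*Cubn* cluster that ratio was 0.574 for *Pou5f1*, 0.0437 for *Sox2*, 0.0141 for *Nanog*, 0.984 for *Sall4* and 0.116 for *Utf1*. The *Amn*/*Cubn* share of the epiblast-like level for *Sox2*, *Nanog* and *Utf1* was 3.81%, 3.79% and 23.7% without marked doublets, 15.0%, 14.4% and 31.7% at resolution 0.5, and 6.21%, 6.38% and 24.9% by the mean over cells. The causes were not tested. In Pdgfra+ the depth of 3 to 28 *Sox2* reads and 5 to 31 *Nanog* reads limits their fold changes, and with 1 library per condition no single-cell difference has a replicate check.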

Other observations

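In -4OHT, 101 cells formed a cluster with markers of the 2-cell embryo, such as the *Zscan4* family, a rare state of pluripotent cultures. There *Nanog* was at 252.7 CPM (exact Poisson 95% interval 229 to 278), above its 181 CPM in epiblast-like cells, whereas *Sox2* was at 171 CPM (152 to 192) beside 340 and *Utf1* at 143 CPM (125 to 162) beside 361. *Pou5f1*, at 44.3 CPM (34.9 to 55.4), and *Sall4*, at 137 CPM (120 to 155), were near their epiblast-like levels of 48.3 and 119 CPM. The +4OHT library held 4 such cells, too few for a level.

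A small cluster with trophectoderm markers, among them *Cdx2*, was the class of +4OHT in which the factors were highest among its classes of 20 or more cells. Its 200 cells held *Sox2* at 84.3 CPM (75.4 to 94.0), *Utf1* at 38.5 CPM (32.6 to 45.3), *Nanog* at 27.7 CPM (22.7 to 33.4) and *Pou5f1* at 18.9 CPM (14.8 to 23.7), beside 0.305, 0.973, 0.0820 and 1.75 CPM in endoderm-like cells of that library. *Sall4* was at 155.7 CPM (144 to 169) beside 125.6 CPM. At 5000 UMIs, 48.2% of 199 cells held at least 1 of these 4 factors, against 1.39% of endoderm-like cells. The same cluster had 79 cells in -4OHT, of which 58 (73.4%) were marked as doublets, with a median of 26842 UMIs. No cell of +4OHT was marked as a doublet, which does not show that doublets were absent, so their part in these values was not tested.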
